A study of Mus musculus with 6 samples.

Results

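A set of 6 genes of cytokine receptor and RAS-ERK signalling held a called YBX1 peak in untreated mouse BaF3 cells with JAK2 V617F. BaF3 is a line of pro-B origin, and V617F is a change that leaves the kinase JAK2 switched on. They were Ghr, Pias2, Cbl, Sos1, Gab2 and Map2k1. YBX1 is a Y-box protein that binds DNA and RNA, and its position on chromatin had been measured by chromatin immunoprecipitation and sequencing in 3 immunoprecipitates and 3 input libraries from the same untreated cells. The authors had set every immunoprecipitate against its like-numbered input to call peaks, which gave 3 lists, named list 1 to list 3 here. A gene was included when it belonged to either of 2 pathway lists, 45 JAK-STAT genes and 56 RAS-ERK genes, and a peak of any list touched its GRCm38 span or the 1 kb on either side. This gave 6 of 101 pathway genes, and 6 of the 1076 protein-coding genes with such a peak, of 21779 in all, so 5.94% of the pathway genes were included against 4.94% of all protein-coding genes. The members were thus chosen for having a peak, and their peak values are given as a description with no test.

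Cytokine receptors without kinase activity of their own work through JAK kinases, which phosphorylate the receptor and the STAT transcription factors. The phosphorylated receptor also recruits adaptors that bring the exchange factor SOS to RAS, and RAS then switches on the RAF, MEK and ERK kinases in turn. JAK2 V617F drives both arms without added cytokine, while parental BaF3 cells depend on interleukin-3. Input was the only background, since the labels give neither a control antibody nor YBX1-deficient cells. Whether the replicates were separate cultures is also not in the labels, and spreads between lists may be technical.

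Each of the 6 genes held 1 peak, and each peak was in 1 list only. Ghr, Pias2, Gab2 and Map2k1 had theirs in list 1, Cbl and Sos1 had theirs in list 3, and list 2 had none in any of the 6. No peak of another list overlapped any of the 6 peaks, and none had its summit within 500 bp. Over all peaks, 42.2% of the 7053 in list 1, 80.6% of the 2628 in list 2 and 81.6% of the 2827 in list 3 overlapped a peak of another list by at least 1 bp. Among all protein-coding genes, 1076 had a peak of any list. Of these 1076 genes, 482 had peaks of exactly 1 list, which is 2.21% of all protein-coding genes. List 1 was the longest list. It came from the deepest input, with 87.6 M tags kept against 70.4 M and 67.0 M, while the immunoprecipitates had 67.0 M, 68.3 M and 69.7 M. Its tag size, 145 bp in the file header, was also shorter than the 159 and 157 bp of lists 2 and 3. The part of depth and tag size in the calls was not tested. Without list 1, Cbl and Sos1 remained.

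**Figure D1:**
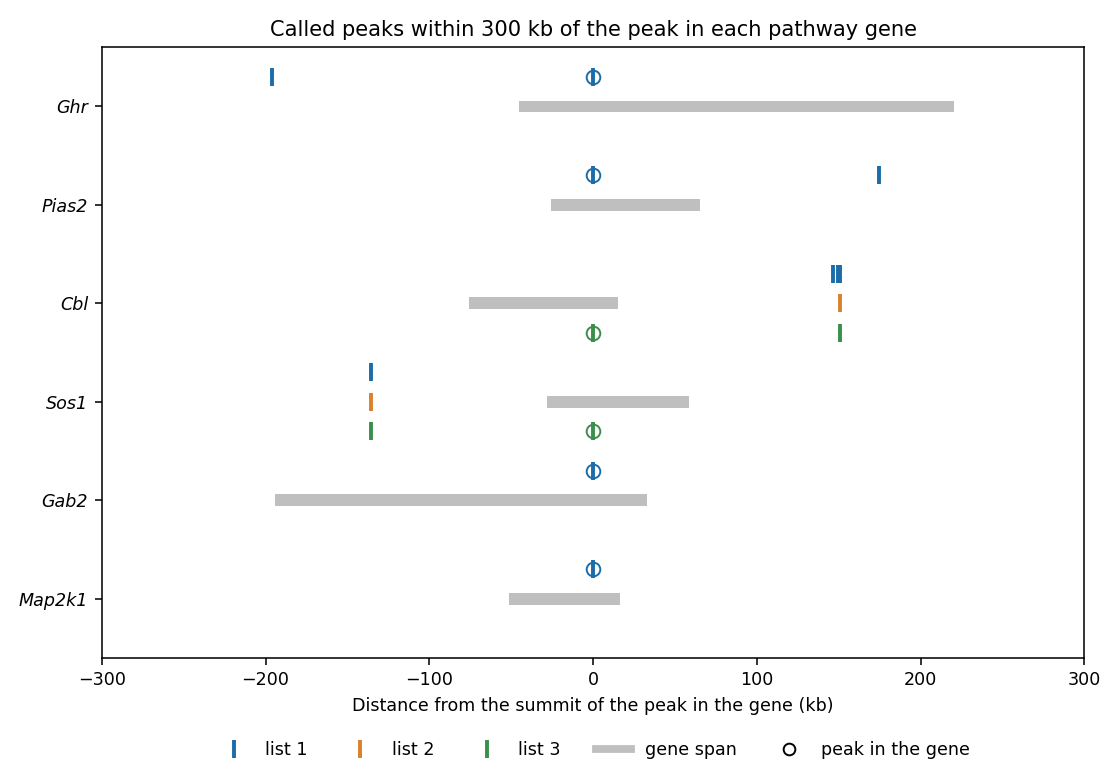
Called peaks around the peak in each of the 6 genes. The horizontal axis is the distance in kb from that peak's summit, grey bars are gene spans, ticks are peak summits of list 1 (blue), list 2 (orange) and list 3 (green), and circles mark the peak inside the gene. Each circle stands alone on its gene, and the regions seen in all 3 lists lie 135.8 kb from the Sos1 peak and 150.9 kb from the Cbl peak.

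Ghr encodes the growth hormone receptor, a cytokine receptor that signals through JAK2. Its span is 265.6 kb, at 3317755 to 3583352 on chromosome 15, and the peak lay at 3362856 to 3363017. The pileup, which counts the extended tags that cover the summit, was 188 in list 1, and the fold over the local input was 1.74 with a −log10 q of 8.69. Every pileup, fold and q value of a peak is the authors'. The local input level behind the fold, solved from it, was 26.7 times the genome-wide level, near the list median of 28.2. The summit was 218.9 and 220.4 kb from the 2 start sites that RefSeq gives for Ghr, toward the far end of the gene. The peak also lay inside Gm41254, a long noncoding RNA gene whose span overlaps that of Ghr. The nearest other peak of list 1 was 195.8 kb away, and the nearest of lists 2 and 3 were 1246 kb away. Elsewhere in list 1, 1 other peak had the same pileup and fold as the Ghr peak, and it was found in another list.

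Pias2 encodes a SUMO ligase of the PIAS family, named as inhibitors of activated STAT proteins. The gene spans 90.5 kb at 77065176 to 77155710 on chromosome 18, and its peak, at 77090583 to 77090742, was in list 1. The pileup was 230 and the fold 1.46, with a −log10 q of 4.66. Only 8.66% of the peaks of list 1 had a lower fold. None was narrower than its 160 bp, which is also the length to which tags were extended. Local input stood at 39.0 times the genome-wide level, above that of 86.5% of the peaks of list 1. The Pias2 peak was thus weak against its input, with a pileup above that of 64.4% of the peaks of list 1. The next peak of list 1 was 174.8 kb away.

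Cbl encodes a ubiquitin ligase that marks activated receptors and tyrosine kinases for removal. Its span is 91.3 kb, at 44142976 to 44234259 on chromosome 9, and its peak lay at 44218796 to 44219145 in list 3. It had the highest −log10 q of the 6, 17.95, with a pileup of 227.75 after scaling and a fold of 2.08. In list 3, 89.6% of the peaks had a lower −log10 q. The peak was 350 bp wide and 15.2 kb from the start site that RefSeq gives for the gene, inside the span. Local input was 27.0 times the genome-wide level.

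The Cbl peak had copies in list 3. Another 18 peaks of that list had the same width, summit offset, pileup and fold, on 12 chromosomes. Of these 18, 7 lay in protein-coding genes, Thsd7b, Gm8104, Tbc1d23, Alms1, Grm5, 2810004N23Rik and Ulk4, and 0 overlapped a peak of another list. Of the 18, 2 were on chromosome 9 with Cbl, the nearer one 14.8 Mb away. With pileup and fold alone matched, 38 other peaks of list 3 on 17 chromosomes were equal to the Cbl peak, and 2 of these were found in another list. Identical copies of this kind were held by 522 peaks of list 3, or 18.5%, in 163 sets, of which 2 had at least the 19 peaks of the Cbl set. The sources used here do not give how reads that align to several places were handled, and the part of this in the copies was not tested.

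Sos1 encodes an exchange factor that loads RAS with GTP. The gene spans 86.7 kb at 80393752 to 80480453 on chromosome 17, and its peak, at 80421699 to 80421990, was in list 3. It was unlike the other 5. The pileup was 17.3, which is 18 tags before scaling, against 188 to 239 in the other genes, and 0.0354% of the peaks of list 3, 1 peak, had a lower one. The fold, 3.05, was the highest of the 6 and above that of 96.3% of list 3, over a local input of 1.24 times the genome-wide level. The −log10 q was 2.37, close to the caller's limit of 2, and 4.56% of the peaks of list 3 were lower. The summit was 58.6 kb from the Sos1 start site in RefSeq. The span of the neighbouring gene Arhgef33 also held it, with an end 11.7 kb away. A region found in all 3 lists lay 135.8 kb from the Sos1 peak, with folds of 2.75, 2.38 and 2.43, outside the Sos1 span.

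Gab2 encodes a scaffold that is phosphorylated below cytokine receptors and recruits the phosphatase SHP2 and PI3-kinase. Its span is 227.2 kb, at 97081751 to 97308951 on chromosome 7, and the peak lay at 97275832 to 97276053, in list 1. The pileup was 192 and the fold 1.59, with a −log10 q of 6.17 and a local input 29.7 times the genome-wide level. In list 1, 2 other peaks, on chromosomes 7 and 11 and outside protein-coding genes, had the same width, summit offset, pileup and fold. Such copies were common, held by 1564 of the 7053 peaks of list 1, or 22.2%. With pileup and fold alone matched, 6 other peaks of list 1 on 5 chromosomes were equal to the Gab2 peak, and 0 of these were found in another list. The summit was 33.0 kb from the nearer end of Gab2. It was the most isolated with Map2k1, as no region of any list lay within 500 kb, and the nearest peak of all 3 lists was 733.6 kb away.

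Map2k1 encodes MEK1, the kinase that phosphorylates ERK. The gene spans 67.8 kb at 64185769 to 64253605 on chromosome 9, the shortest of the 6, and its peak in list 1 lay at 64236820 to 64236997. The pileup was 239, the highest of the 6, but the fold was 1.46 and the −log10 q 4.90. Local input was 40.5 times the genome-wide level, above that of 88.9% of list 1. The summit was 16.7 kb from the Map2k1 start site in RefSeq and 0.563 kb from an end of Uchl4, a 1.16 kb protein-coding gene at 64235201 to 64236362 inside the Map2k1 span. Another 10 peaks of list 1 on 9 chromosomes had the same pileup and fold at widths of 169 to 224 bp, and 0 of the 10 overlapped a peak of another list. The next peak on the chromosome was 1372 kb away.

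**Figure D2:**
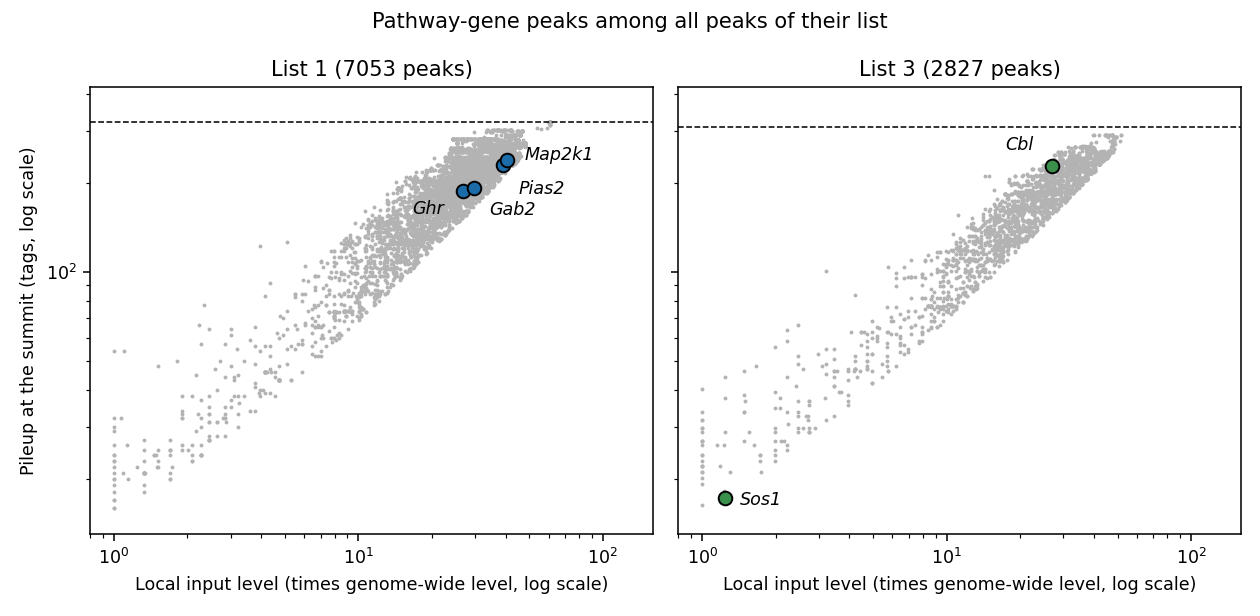
Pileup at the summit in tags against the local input level in multiples of the genome-wide level, both on log scales, for all peaks (grey) of list 1 and list 3 and for the peaks in the 6 genes (coloured). The dashed line is the highest pileup that 1 tag per position and strand allows, 320 tags in list 1 and 307.5 after scaling in list 3. Sos1 sits at the lower left with 17.3 tags, and the other 5 sit at 188 to 239 tags with local inputs of 26.7 to 40.5 times the genome-wide level.

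Among themselves the 6 peaks thus split by local input into Sos1 and the rest. In list 1, the folds of Ghr, Pias2, Gab2 and Map2k1 were 1.46 to 1.74, against a median of 1.78 over all its peaks. In list 3, the folds were 2.08 in Cbl and 3.05 in Sos1, against a median of 1.80. The excess of pileup over local input was 118.8 tags in Cbl and 71.9 to 80.1 in Ghr, Pias2, Gab2 and Map2k1, and 12.3 in Sos1. At a −log10 q of at least 5, Ghr, Cbl and Gab2 remained.

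The lists hold no values where nothing was called, so the level at these sites in the remaining replicates is not known. What can be given is the pileup of the peaks that were called there at a like local input, within 10% of the member's. For Ghr, with a pileup of 188, list 2 held 411 such peaks and list 3 held 511, with medians of 202 and 196.0 and lowest values of 145 and 144.2. For Gab2, at 192, the medians in lists 2 and 3 were 219 and 213.3 and the lowest values 164 and 159.5. Both genes were thus below those medians. Pias2, at 230, was also below them, at 233 and 232.6, with lowest values of 203 and 198.0. Map2k1, at 239, lay between its medians of 237 and 240.2, with lowest values of 207 and 203.7. Cbl, at 227.75, was above the medians of 212 and 205 in lists 1 and 2, where the lowest value was 146 in both. Sos1, at 17.3, was below the medians of 21 and 23.5 among 16 and 12 such peaks of lists 1 and 2, and next to the lowest values of 18 and 17. Each member had itself been called, so a pileup above the lowest called elsewhere is not a result.

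How often peaks of like strength were found in another list differed between the 2 lists. Among peaks of list 1 within 1 unit of −log10 q, 50.6% of those like Ghr were found again, 32.0% like Pias2, 31.9% like Gab2 and 32.1% like Map2k1. In list 3, most peaks of like strength were found again, 66.4% of those like Cbl and 79.8% of those like Sos1. The 137 peaks like Cbl include the 38 equal to it in pileup and fold, of which 2 were found again. With local input within 10% instead, the shares were 46.9% for Ghr, 30.7% for Pias2, 35.0% for Gab2 and 30.7% for Map2k1 in list 1, and 84.4% of 495 peaks for Cbl in list 3. For Sos1 only 8 peaks of list 3 had a like input, and 2 of them were found again. List 3 had 143 peaks whose local input, as at Sos1, was under 5 genome-wide levels, and 23.8% of them were found again.

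The other protein-coding genes with the most similar peaks were picked by distance over log2 pileup and log2 fold within the same list. For Cbl they were Thsd7b and Mcm9, whose peaks had the same pileup and fold, but they were tied with others, since 17 of the 38 equal peaks lay in protein-coding genes. For Map2k1 they were Slc22a29 and Nek6, also equal in both and also tied, since 3 of the 10 equal peaks lay in protein-coding genes. For Pias2 they were Fhit and Tmem132d, each with a pileup of 229 and a fold of 1.46. For Ghr they were Gm21693 and Fsd1l, with pileups of 190 and 192, and for Gab2 they were Nbeal1 and Rapgef6, with 193 and 196. For Sos1 they were Vmn2r44 and Gm4788, with pileups of 18.26 and 16.34 and folds of 3.23 and 3.44. Of these 12 peaks, those at Fsd1l, Rapgef6 and Vmn2r44 were found in another list.

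Where a start site was given, no peak lay at it. RefSeq windows of 250 bases before to 50 after the start were matched by symbol for Ghr, Cbl, Sos1 and Map2k1, with no entry for Pias2 and Gab2, and none of the 5 windows touched a peak. Over all genes 14 of 32851 windows, or 0.0426%, touched a peak of any list. YBX1 was named for the Y-box, an element with an inverted CCAAT at its core, and CCAAT was therefore searched as the letters CCAAT or their reverse complement ATTGG. It was in both windows of Ghr and in that of Map2k1, not in those of Cbl and Sos1, and in 37.4% of all windows. The stretches are shown because they place this element against the peaks. Peak summits were 16.7 kb from the Map2k1 start site and over 200 kb from the 2 Ghr start sites. The stretches are on the minus strand of GRCm38.p6, with CCAAT or ATTGG in capitals.
Map2k1, chr9:64253750-64253794: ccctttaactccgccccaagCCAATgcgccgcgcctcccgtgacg
Map2k1, chr9:64253690-64253734: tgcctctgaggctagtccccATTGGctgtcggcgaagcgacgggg
Ghr, chr15:3583498-3583542: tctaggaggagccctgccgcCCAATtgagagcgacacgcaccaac
Ghr, chr15:3581874-3581918: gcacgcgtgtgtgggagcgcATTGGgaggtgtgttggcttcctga
The motif starts 169 and 109 bases before the Map2k1 start, and 170 and 56 bases before the 2 Ghr starts. The first Ghr window holds another CCAAT, 202 bases before its start. A match describes letters only. The sequence of the peaks themselves was not analysed here.

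Genes of these pathways held a peak about as often as genes at large. Of the 45 JAK-STAT genes 3, or 6.67%, and of the 56 RAS-ERK genes 3, or 5.36%, had a peak of any list in the span or 1 kb around it. Over all 21779 protein-coding genes the share was 4.94%. Lists 1, 2 and 3 taken singly gave 4.20%, 2.37% and 2.57%. A region of at least 2 lists was in 2.52% of all genes and in 0 of the 101 pathway genes. The pathway shares with a peak of any list are near the 4.94% of all genes and are not a result about the pathways. The difference between 0 and 2.52% for regions of at least 2 lists was not tested. Both lists were written with earlier results of these data known.

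By role, Ghr was 1 of 19 receptor genes with a peak. The 18 others included Epor and the interleukin-3 receptor genes Il3ra and Csf2rb. None of the 4 JAK kinases, the 7 STAT factors, the 4 SOCS family genes, the 3 phosphatases or the 2 SH2B adaptors had one. Pias2 was 1 of 4 PIAS genes and Cbl 1 of 2 ligases of its family. In the RAS-ERK list, Gab2 was 1 of 6 adaptors counted with the phosphatase Ptpn11, Sos1 1 of 6 exchange factors and Map2k1 1 of 4 MEK and ERK kinases. None of the 6 RAS GTPases, the 5 GTPase activators, the 6 RAF kinases and scaffolds, the 11 feedback inhibitors, the 4 target transcription factors or the 8 genes below ERK, with Mknk1 and Mknk2 among them, had a peak. With 4.94% of all protein-coding genes holding a peak, counts in roles this small are not a result about a role. The roles without a peak had median spans from 5.19 kb (SOCS family) to 105.7 kb (RAF kinases and scaffolds). In the 95 genes without a peak, the nearest one lay a median of 295.0 kb from the span. Just outside the 1 kb window was Mras, a RAS relative, at 3.13 kb. All 6 members were inside it by far, as each peak lay within the gene and at least 15.4 kb from the gene's ends.

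Long genes held peaks more often, and the members were long. The median span was 17.2 kb over all protein-coding genes and 136.4 kb over those with a peak. It was 32.8 kb over the 101 pathway genes and 90.9 kb over the 6 members. A peak of any list was in 7.14% of the 2508 genes of 50 to 100 kb, the class of Pias2, Cbl, Sos1 and Map2k1, which made up 4 of its 25 pathway genes. It was in 31.9% of the 433 genes of 200 to 300 kb, the class of Ghr and Gab2, which made up 2 of 4. In between, at 100 to 200 kb, 0 of 12 pathway genes had a peak, against 14.8% of all genes. Nor did Ksr2, the longest pathway gene at 354.0 kb, in a class where 51.2% of genes did.

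**Figure D3:**
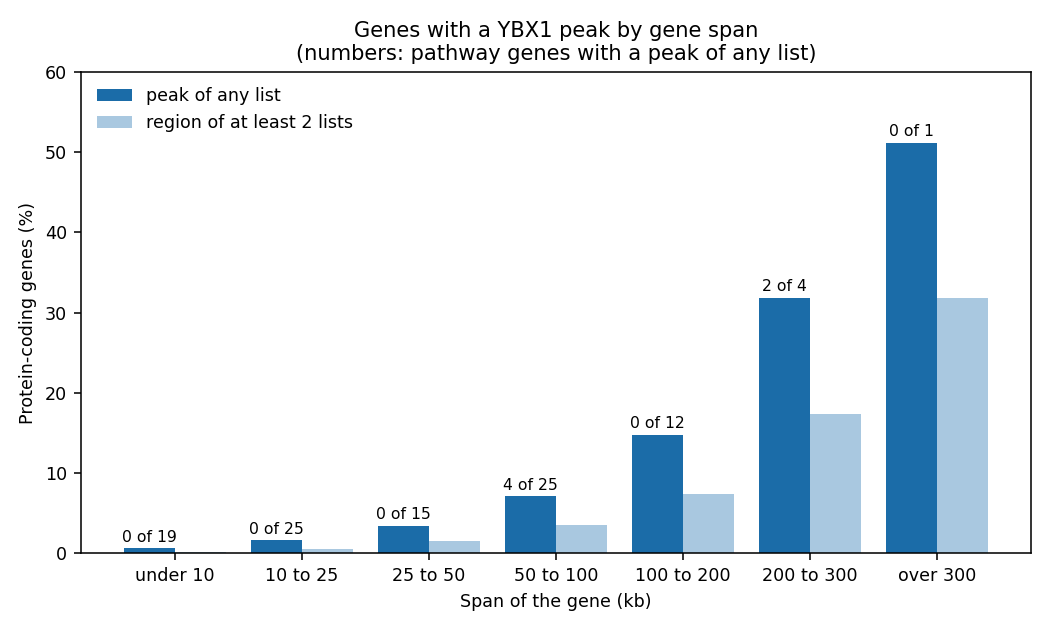
Share of protein-coding genes in percent with a peak of any list (dark) or a region of at least 2 lists (light), by gene span in kb, with the number of pathway genes that had a peak of any list above each class. The share rises from 0.623% under 10 kb to 51.2% over 300 kb, and the 6 genes fall in the classes of 50 to 100 kb and 200 to 300 kb.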

How the data were processed

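The samples were 3 YBX1 immunoprecipitates and 3 inputs, grouped and numbered by their titles. Files carry the same numbers, by which each table was matched to its immunoprecipitate. The submitters' processing notes name Trim Galore, MACS2 and GRCm38. No aligner is given in the sources used here. Each immunoprecipitate was called against 1 input with MACS 2.1.1.20160309, with tags extended to 160 bp, a q threshold of 0.01, at most 1 tag per position and strand, and scaling of the larger library to the smaller, per the file headers. The deposited pileup is a signal in scaled tags. The deposited fold is a ratio of pileup to local input, with 1 added to each. The deposited −log10 p and −log10 q are the caller's. The deposited summit lists matched the tables at every peak.

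Local input here is the caller's background level behind the fold, not a count of input tags read at the summit. It was solved from the fold and divided by kept tags times extension over a genome size of 2652783500. With this level as the Poisson mean, the −log10 p of the 6 peaks came within 0.000918 of the deposited values. Spans and start-site windows came from RefSeq tables of GRCm38.p6, which give no exons. All 101 pathway symbols matched. Of 21900 protein-coding entries, 121 off the chromosomes or, on chromosomes other than Y, starting below 3 Mb were left out. Lists were merged at 1 bp of overlap. Copies are peaks of 1 list that are equal in width, summit offset, pileup and fold. The members and lists were chosen with earlier results of these data known. Named genes were the members, other pathway genes with a peak (there were 0), genes sharing or nearest to a member's peak, and for each member the 2 genes with the most similar peaks. Others, among them genes holding copies and genes near peaks, were named after their values were seen. Scripts were tested on simulated data and run in Python 3.11.15 with pandas 2.3.3 and scipy 1.17.1.

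Alternatives were other windows, a −log10 q of at least 5, regions of at least 2 lists, other overlaps and leaving out each list. No test between groups was made, since the members were chosen by the values described.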

Additional observations from a re-analysis of the deposited data

How the results depend on the processing

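The 6 genes had a peak with the span alone and with 5 kb around it. At a −log10 q of at least 5, 3 remained (Cbl, Gab2, Ghr), which left 2 JAK-STAT genes and 1 RAS-ERK gene. With regions of at least 2 lists, 0 of the 6, 0 JAK-STAT genes and 0 RAS-ERK genes had one, and 2.52% of all genes did. Leaving out each list in turn gave 2 to 6 of the 6, 1 to 3 genes of either pathway and 3.39% to 4.65% of all genes. The lowest values came without list 1, which left Cbl and Sos1. The window of 5 kb added Mras. The 0 peaks found in another list stayed 0 at an overlap of 50% of the shorter peak, at summits within 500 bp and under the stricter −log10 q in both lists. No paired analysis was possible because no result comes from a test. The lists give no level at uncalled sites, which limits what a missing peak shows.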

Other observations

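Some pathway genes had a peak near but outside the 1 kb window. They are named because of their values. How many of all protein-coding genes have a peak at such distances was not counted, so this nearness is not a result about them. Il3ra, the alpha chain of the interleukin-3 receptor, had a peak 8.63 kb from its span on chromosome 14 in all 3 lists, with folds of 1.78, 1.70 and 1.64, pileups of 236, 245 and 243.1 and −log10 q values of 12.2, 10.5 and 8.83. The local input at this site was 32.7, 34.8 and 36.6 genome-wide levels. Near Osmr, the oncostatin M receptor gene, the 3 lists also had a peak, 17.7 kb away at the closest, with folds of 1.51, 1.36 and 1.55 and local inputs of 32.7, 36.2 and 34.6 times the genome-wide level.

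For 6 other genes the single nearest peak was in list 1 only, but a region of at least 2 lists was not far beyond it for Pias1, at 15.4 kb from the span, Il4ra, at 22.1 kb, and Jak1, at 27.5 kb. The nearest peak to Mras, at 3.13 kb, had a pileup of 45 and a fold of 3.28, with a local input of 3.22 times the genome-wide level. Those nearest to Rasgrp3, a RAS exchange factor gene, and Pias1, a relative of Pias2, were 11.4 and 12.8 kb away with folds of 2.05 and 1.73. For Il4ra, Jak1 and Rasa3 the distances were 19.3, 23.8 and 33.1 kb and the folds 1.41, 1.50 and 1.94.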
